A study of Rattus norvegicus with 18 samples.

Results

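The genes described here are the cytosolic and mitochondrial chaperone families of the rat as read in 9 cell populations of the testis. A gene was taken as a member where its annotation symbol began with Dnaj, Hspa, Hspb, Hspd, Hspe, Hsph or Hsp90a, or named one of the Cct2 to Cct8 subunits, with Hspa5 left out. This gave 70 genes of 13807 with a symbol of their own on either of 2 array types, called A and B here, and each was read from its brightest probe set, on type A for 54 genes and on type B for 16. The members comprised 40 DnaJ genes (4 of type A, 13 of type B and 23 of type C), 8 Hsp70 genes, 3 genes of the Hsp110 group, 1 Hsp90 gene, 7 small heat shock protein genes, 7 CCT subunits, 2 subunits of the mitochondrial chaperonin and 2 binding partners, Hspbp1 and Hspbap1. The rule goes by symbol, so that 10 of the members encode proteins of the endoplasmic reticulum, such as Dnajb9, Dnajb11, Dnajc3 and Hspa13, and Dnajb6-ps10 is a pseudogene by its symbol. Hspa8, Hsp90aa1 and Hspa1b have no value as single genes, since the 7 probe sets that carry these and some other family names are annotated to several genes.

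All populations came from testes of 22-day-old rats, and 7 of them were germ cells. These were cultured cells that bound to laminin, cultured cells that did not bind, cells kept for 20 days on MSC1 feeders, and cells kept on STO feeders for 1, 5, 10 or 20 days. The 2 somatic fractions were tubular somatic cells and interstitial cells, with no culture given. The STO feeders are fibroblasts of a mouse embryonic line and the MSC1 feeders a mouse Sertoli cell line, so the libraries of cells on feeders can hold mouse RNA. Each population had 1 library per array type and no replicate. A fold between 2 libraries therefore carries neither an error nor a p-value here, and the small number of arrays limits its precision.

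Chaperones of the Hsp70 family bind unfolded stretches of protein and release them in a cycle driven by ATP. DnaJ proteins, also called Hsp40, bring clients to Hsp70 and start ATP hydrolysis, Hsp110 proteins such as Hsph1 exchange the nucleotide, and small heat shock proteins hold unfolding proteins without using ATP. The CCT ring folds actin and tubulin in the cytosol, while Hspd1 and its lid Hspe1 fold proteins in mitochondria. Male germ cells carry forms of their own, above all Hspa2, which in mice is needed for meiosis in spermatocytes, and the heat shock factors Hsf1 and Hsf2 switch on many of these genes.

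Signals are intensities on arrays that the authors had scaled to an average of 250. A floor of 50 was set below which signals have no order, and 51 members lay above it in all 9 libraries, 14 in some libraries and 5 in none (Hspa1l, Hspb2, Hspb3, Dnajb7 and Dnajb13). A member was called between 2 libraries where the brighter one read at least 250 and the fold was at least 3. Germ cell transcripts fitted the labels, as the summed signal of 5 germ cell genes was 13602 to 31753 in the 7 germ cell libraries and 713 to 741 in the somatic fractions. The summed signal of 6 haploid spermatid genes was 35.0 to 133 in the 9 libraries, and that of 8 Sertoli cell genes was 633 to 1713 in the germ cell libraries, 11835 in the tubular fraction and 6666 in the interstitial fraction. Feeder libraries had a Gapdh 3' to 5' signal ratio of 14.7 to 29.7 on type A, against 5.63 to 11.2 in the 4 other libraries. On type B the ranges overlapped, at 15.0 to 27.1 against 5.33 to 16.7. The part of RNA quality or of mouse RNA in the results on feeders was not tested. The log2 folds of 100 probe sets on both types differed with a standard deviation per type of 0.20 to 0.27 in the comparisons of 2 libraries, which is the spread between arrays and leaves out that between animals, cultures and amplifications.

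**Figure D1:**
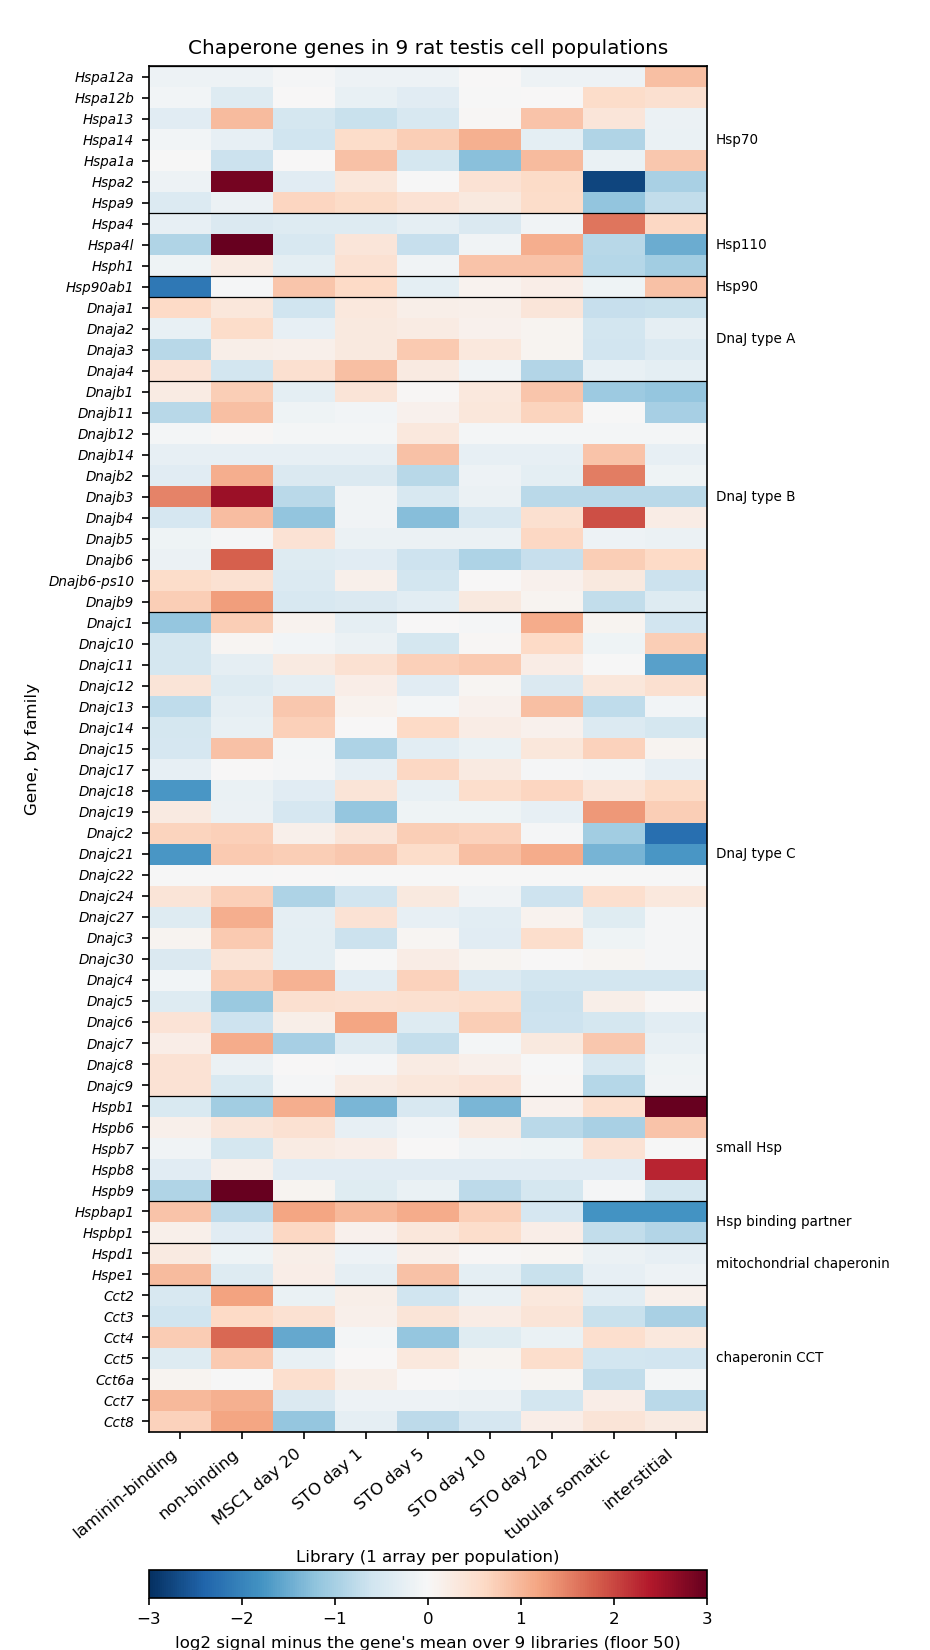
Log2 signal of the 65 members above the floor in at least 1 library (rows, by family), relative to each gene's mean over the 9 libraries (columns, 1 library each), on a colour scale that ends at 3 in either direction. Hspa2, Hspa4l and Hspb9 are deepest red in non-binding cells, Hspb1 and Hspb8 in the interstitial fraction, and the row of Hspd1 is nearly even.

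Stretches upstream of an annotated start of the gene are shown for 6 members. Hspa2, Hspa4l and Hspb9 were chosen because they had the largest differences between germ cell populations. Hsph1, Hspd1 and Hspe1 were chosen because they held the letters of a triple heat shock element. They are RefSeq sequence of the GRCr8 build, given in the direction of the gene, with matches to the facing repeats GAANNTTC or TTCNNGAA in capitals. For Hspa4l, Hspb9 and Hsph1 the 250 bases before the start are given. For Hspa2, Hspd1 and Hspe1, where an annotated gene extent covers the upstream bases, 30 bases around the matches are given. That extent is the gene's own for Hspa2 and Hspd1, and that of Hspd1 for Hspe1. The stretches of Hspa2 and Hspd1 thus lie before the start used here but inside the gene's widest extent.
Hspa2, chr6:100864366-100864395, plus strand: ggctctgagagtTTCCAGAAggcagggggt
Hspa4l, chr2:125668096-125668345, plus strand: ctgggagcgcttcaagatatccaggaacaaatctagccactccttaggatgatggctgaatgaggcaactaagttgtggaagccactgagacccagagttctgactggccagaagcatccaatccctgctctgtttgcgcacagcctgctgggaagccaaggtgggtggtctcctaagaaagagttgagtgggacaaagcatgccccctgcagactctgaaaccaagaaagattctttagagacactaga
Hspb9, chr10:86141353-86141602, plus strand: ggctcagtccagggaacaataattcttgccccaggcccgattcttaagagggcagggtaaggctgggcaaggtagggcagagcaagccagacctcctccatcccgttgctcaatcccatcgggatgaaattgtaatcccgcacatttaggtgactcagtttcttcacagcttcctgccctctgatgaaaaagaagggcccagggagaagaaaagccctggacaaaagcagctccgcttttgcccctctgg
Hsph1, chr12:10427118-10427367, plus strand: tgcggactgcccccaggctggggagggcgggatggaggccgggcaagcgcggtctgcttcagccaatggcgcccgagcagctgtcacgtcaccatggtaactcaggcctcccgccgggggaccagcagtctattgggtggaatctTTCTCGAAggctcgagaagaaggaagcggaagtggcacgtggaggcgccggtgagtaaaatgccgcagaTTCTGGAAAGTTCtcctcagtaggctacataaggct
Hspd1, chr9:64084257-64084286, minus strand: cggggccTTCCGGAAGGTTCTAGAAccgag
Hspe1, chr9:64084255-64084284, plus strand: cgctcggTTCTAGAACCTTCCGGAAggccc

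The lines of Hspd1 and Hspe1 show the same element read on opposite strands. These genes point away from each other, with 289 bases between the starts used here, while their annotated gene extents overlap. Of the 70 members 58 had an upstream entry. Members were counted by gene, while the 33469 entries overall stand for 27457 genes, so the shares have unlike units. The letters GAANNTTC, which read the same on both strands, were found in the 250 upstream bases of 11 of them (19%) and of 7.23% of all 33469 entries. TTCNNGAA, which also reads the same on both strands, was found in 8 members (13.8%) and 7.48% of all entries. The triple form, TTCNNGAA continued by NNTTC, which holds both of these, was found on either strand in 3 members (5.17%) and 0.663% of all entries. The windows of Hspd1 and Hspe1 share 211 bases, so their common element is counted for both genes, here and in the counts above. The cyclic AMP response element TGACGTCA, searched on both strands, was found in 4 members (6.9%), Cct4, Dnajc27, Dnajc30 and Hsp90ab1, and in 1.59% of all entries. These are matches of letters and not sites shown to be bound.

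Between the laminin-binding and the non-binding cells, the germ cell forms of the Hsp70 and small heat shock proteins differed most, and all of those called were lower in binding cells. Laminin binding is used to enrich spermatogonia, and the summed signal of 7 genes of meiotic prophase and pachytene was 1362 in binding cells and 20386 in non-binding cells. Of 7 meiotic genes 6 were called lower in binding cells, and of 7 genes of undifferentiated spermatogonia 4 were called higher. Fewer cells of a type and less RNA per cell cannot be told apart in these pooled libraries.

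Hspa2, the Hsp70 of spermatocytes, read 654 in binding cells and 5333 in non-binding cells, 8.15-fold lower in binding cells, and its other probe set, on type A, was at the floor against 264, at least 5.27-fold lower. In the other germ cell libraries it read 576 on MSC1 and 919, 716, 977 and 1084 on days 1, 5, 10 and 20 on STO, and in the somatic fractions 107 in tubular and 371 in interstitial cells. Non-binding cells thus stood apart from all 8 other libraries, and the tubular fraction was lowest. Hspa4l, an Hsp110 protein abundant in the testis, read 192 in binding cells and 2998 in non-binding cells, 15.6-fold lower in binding cells. Its remaining signals were 258 on MSC1, 464, 221, 332 and 757 over the STO days, 201 in tubular and 127 in interstitial cells, so that binding cells lay between the somatic fractions. Hspb9, a small heat shock protein known from testis, read 127 in binding cells and 2266 in non-binding cells, a 17.9-fold lower value in binding cells. All 7 other libraries had Hspb9 signals of 137 to 251, so a high signal was found in 1 library of 9. Dnajb3, a DnaJ protein of mouse spermatids, followed with 246 in binding and 523 in non-binding cells, 2.13-fold lower and under the threshold. It read 39.0 on MSC1, 81.6, 63.4, 78.2 and 44.7 over the STO days, and 15.8 and 27.2 in the tubular and interstitial fractions. Dnajb13, Dnajb7 and Hspa1l, the other germ cell forms on the arrays, were under the floor in every library.

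**Figure D2:**
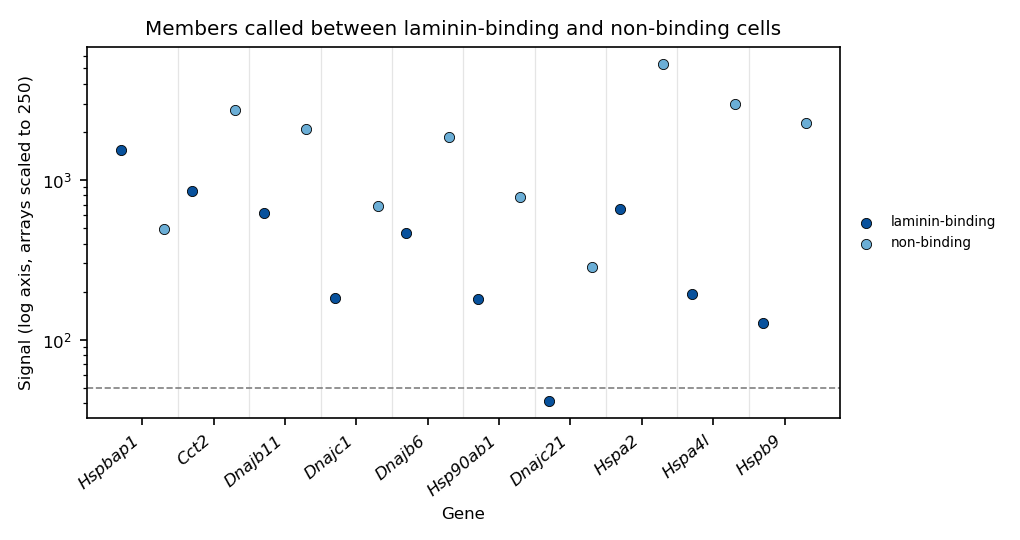
Signal on a log axis (arrays scaled to 250) of the 10 members called between laminin-binding (dark, left in each column) and non-binding cells (light, right), 1 library each, with the floor of 50 dashed. Only Hspbap1 is higher in binding cells, at 1536 against 494, and Dnajc21 lies under the floor in binding cells.

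Among the partners of Hsp70, 4 of 40 DnaJ genes (10%) were called lower in binding cells, against 5.29% of all genes, and none higher, against 4.85%. Of all genes with a geometric mean of at least 250 over the 9 libraries, 8.73% were called lower and 8.26% higher. Dnajc21, whose yeast counterpart acts in ribosome assembly, read 41.0 in binding cells and 286 in non-binding cells, at least 5.72-fold lower. It was 245 to 361 in the 5 feeder libraries and 63.8 and 20.6 in the tubular and interstitial fractions, so it was at or near the floor in binding cells and both somatic fractions. With a floor of 100 it was not called. Dnajb6, which keeps aggregation-prone proteins soluble, was 469 in binding and 1850 in non-binding cells, 3.95-fold lower. Dnajc1 and Dnajb11, both of the endoplasmic reticulum, were 3.75-fold (183 against 686) and 3.34-fold (624 against 2084) lower in binding cells, although another probe set of Dnajc1 read 141 in binding and 180 in non-binding cells. By their brightest probe sets all 9 endoplasmic reticulum members with a signal were lower in binding cells, by log2 folds of -1.91 to -0.08. Dnajb12 and Dnajc14 were under the floor in binding cells (28.1 and 29.7), so with a signal they could only be lower. Of all genes with a geometric mean of at least 250, 46.5% were lower. Of the 9 members 2 were called. Another probe set of Dnajc10, which was not called, ran the other way, at 615 in binding and 513 in non-binding cells. The unfolded protein response genes Canx, Herpud1 and Sdf2l1 were called lower as well, 3 of 7.

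Of the 7 CCT subunits among the members, 6 were lower in binding cells and 1 was called. Tcp1 of the same ring is no member by its symbol and read 5798 in binding and 6464 in non-binding cells. Cct2 read 847 in binding and 2731 in non-binding cells (3.23-fold lower), Cct3 1390 and 3173 (2.28-fold), Cct5 2046 and 4633 (2.26-fold) and Cct4 3140 and 6094 (1.94-fold). After quantile normalization Cct2 and Dnajb11 lost their calls, and Dnajc18 and Dnajc27 were called lower instead. Cct8, Cct7 and Cct6a were within 1.41-fold between these libraries, with Cct7 at 4396 in binding and 4674 in non-binding cells. Subunits of this ring are assembled in equal number, and the signals of their brightest probe sets were not in step across these libraries. Differences between subunits cannot be told apart here from those between probe sets. Probe sets other than the brightest gave larger folds for Cct5, at 7.79-fold lower in binding cells (114 against 891), and for Cct8, at 3.40-fold lower (583 against 1981). Dnaja1, a main cytosolic DnaJ partner of Hsp70, likewise read 4833 in binding and 4019 in non-binding cells by its brightest probe set and 395 and 1348 by its other, 3.41-fold lower.

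Hspbap1, which binds the small heat shock protein Hspb1, was the member called higher in binding cells, at 1536 against 494 in non-binding cells or 3.11-fold. It was no longer called when every array was set to a common 75th percentile or after quantile normalization. The heat-inducible list held no call among 8 members with a signal. Hspe1 was 7820 in binding and 3089 in non-binding cells, 2.53-fold higher, and Hspd1 6627 and 4983, 1.33-fold higher. Across the libraries Hspe1 was highest in binding cells, on STO day 5 and on MSC1. Their type A arrays had the largest scale factors, at 1.028, 1.512 and 1.098, against 0.391 to 0.670 on the others. The part of scaling in the Hspe1 values was not tested. Hspa1a read 308 in binding and 199 in non-binding cells, Dnajb1 2072 and 2891, and Hsph1 838 and 1084. The immediate early genes were called higher in binding cells for 5 of 7, with a summed signal of 9468 in binding and 1976 in non-binding cells, and their part in these values was not tested.

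For Hsp90ab1, the constitutive cytosolic Hsp90, the direction could not be settled. Its brightest probe set read 181 in binding and 778 in non-binding cells, 4.30-fold lower, while its second read 2095 and 576, 3.64-fold higher. On MSC1 the same probe sets read 1409 and 244, and in the 7 libraries other than binding cells and MSC1 they read 648 to 1460 and 558 to 815. Of the 29 members with several probe sets, this was the 1 member with calls in both directions in this comparison.

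**Figure D3:**
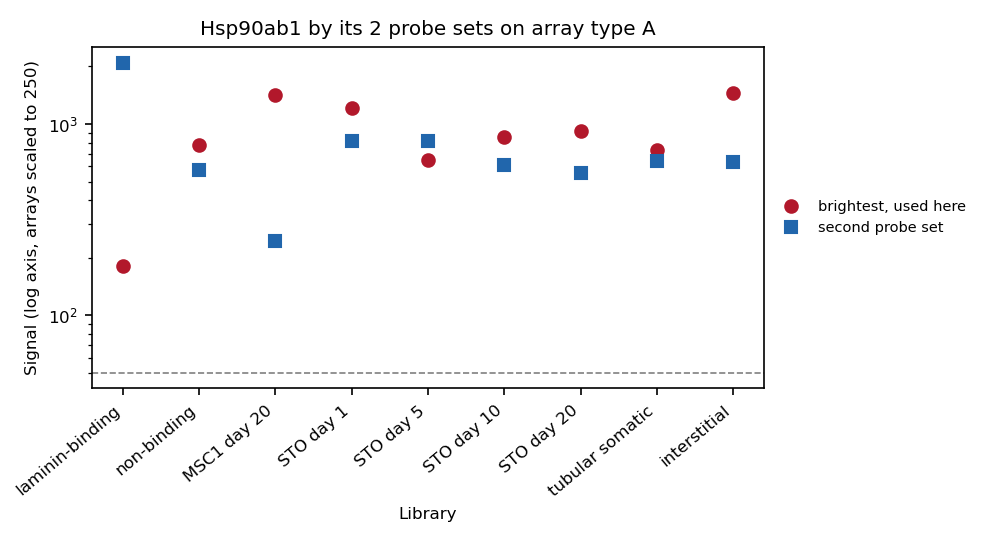
Signal of Hsp90ab1 on a log axis (arrays scaled to 250) in each of the 9 libraries by its brightest probe set (red circles) and its second probe set (blue squares), both on array type A, with the floor of 50 dashed. The probe sets part in opposite ways in laminin-binding cells, where they read 181 and 2095, and on MSC1, where they read 1409 and 244.

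In total 1 of 70 members (1.43%) was called higher in binding cells, against 4.85% of all genes, and 9 (12.9%) were called lower, against 5.29% of all genes. The 9 include Hsp90ab1, whose direction was not settled. With the mean over probe sets 7 were called lower, without Dnajc1 and Hsp90ab1, and 4.03% of all genes. Among genes with a geometric mean of at least 250 over the 9 libraries, 1 of 43 members (2.33%) and 8.26% of all genes were called higher, and 7 of 43 members (16.3%) and 8.73% of all genes lower. The median log2 fold was -0.43 for 62 members with a signal and 0.22 for all 11272 genes with a signal. By the library with the highest signal, non-binding cells came first for 17 of those 43 members (39.5%), against 16.4% of all genes. Binding cells came first for 6 members (14%, against 15.5% of all genes).

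The 7 germ cell libraries were compared with the 2 somatic fractions by overlap, with a member called where the groups did not overlap, the brighter geometric mean was at least 250 and the means differed at least 2-fold. These libraries are different populations and not replicates, so no test was made. Members called higher in germ cells included Hspa2, the heat-inducible Dnajb1 and Hsph1, and the mitochondrial Hspa9. In the same comparison 4 of 8 Sertoli cell genes and 4 of 7 fibroblast and matrix genes were called lower in germ cells, and their part in the chaperone values was not tested. Hspa2 had a geometric mean of 1049 in the germ cell libraries and 200 in the somatic fractions, 5.26-fold higher, with the values given above. By its other probe set, on type A, Hspa2 averaged 63.4 in the germ cell libraries and was at the floor in both somatic fractions, which is no call.

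Hspbap1 read 494 to 1932 with a median of 1536 in the germ cell libraries, against 245 and 244 in the tubular and interstitial fractions, 4.95-fold higher. Dnajc2, which works at the ribosome on nascent chains, had germ cell signals of 1070.0 to 1814 with a median of 1742, against 530.0 in tubular and 229 in interstitial cells, 4.35-fold higher. Dnajb1, the main heat-inducible DnaJ partner of Hsp70, read 1432 to 3085 with a median of 2153 in the germ cell libraries, against 822 and 776 in tubular and interstitial cells, 2.73-fold higher. Hsph1 read 748 to 1661 with a median of 1084 in germ cells, against 507 and 440, 2.34-fold higher. Hspa9, the Hsp70 of mitochondria, read 1117 to 2317 with a median of 1982, against 648 and 887, 2.35-fold higher. Hsph1 and Hspa9 also have dim probe sets, and neither was called with the mean over probe sets. Cct3 read 1390 to 3173 with a median of 2734, against 1320 and 1074, 2.07-fold higher, and it lost its call without the non-binding or the interstitial library, at log2 folds of 0.98 and 0.90. The groups did not overlap in any of these genes, which the call required. Dnajc19, a part of the mitochondrial import motor, was the member called lower. It read 584 to 1585 with a median of 1152 in germ cells, against 3192 and 2186 in tubular and interstitial cells. Dnajc10 was called higher by another probe set only, at 513 to 844 in germ cells against 151 and 358 in tubular and interstitial cells.

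**Figure D4:**
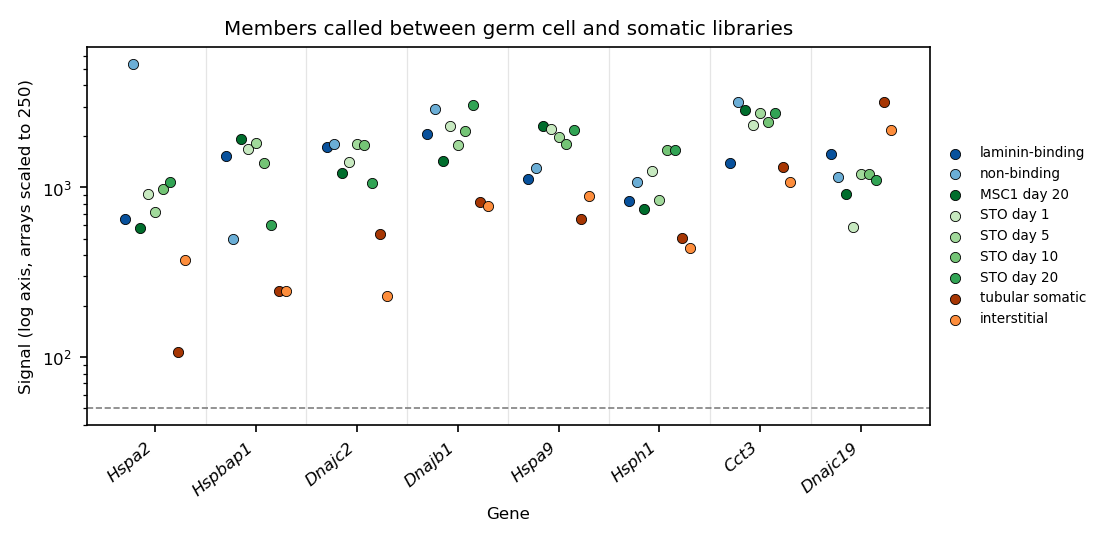
Signal on a log axis (arrays scaled to 250) of the 8 members called between germ cell and somatic libraries, 1 point per library, with germ cell libraries in blue and green to the left and somatic fractions in orange to the right of each column, and the floor of 50 dashed. Hspa2 in non-binding cells stands above its other libraries at 5333, and Dnajc19 is the gene with both somatic points on top.

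The calls came to 7 of 70 members higher (10%), against 8.33% of all genes, and 1 lower (1.43%), against 7.42%. Among genes with a geometric mean of at least 250 over the libraries, 7 of 43 members (16.3%) and 18.6% of all genes were called higher, so the share of members was near that of other genes. In the same set 1 of 43 members (2.33%) and 8.93% of all genes were called lower. At any fold, 12 members had all germ cell libraries above both fractions (17.1%, against 13.6% of all genes), adding Cct5, Dnaja1, Dnaja2, Hspbp1 and Hspd1. With the geometric mean minimum these were 11 of 43 members (25.6%), against 23.1%. At any fold 3 members had them all below (4.29%, against 10.6%), adding Hspa4 and Hspa12b, and 1 of 43 (2.33%), against 10.9%, with that minimum. Hspa4, the Hsp110 gene of most tissues, read 47.8 to 62.8 in germ cells, close to the floor, and 206 and 104 in tubular and interstitial cells.

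The fixed list of cochaperones and folding partners had 36 genes on the arrays, among them the member Hspbp1. In germ cells 6 were called higher (16.7%, against 8.33% of all genes) and 2 lower (5.56%, against 7.42%). Of all genes with a geometric mean of at least 250, 18.6% were called higher and 8.93% lower. This list was not limited by that minimum. Fkbp4, an Hsp90 partner of steroid receptors, averaged 621 in germ cells and 75.5 in the somatic fractions, 8.23-fold higher. Stip1, which links Hsp70 to Hsp90, was 2.80-fold higher (306 against 109), Trap1, the Hsp90 of mitochondria, 2.85-fold (1265 against 443), Hsf2 2.66-fold (5530 against 2076), Grpel2 2.42-fold and Ppid 2.17-fold. Bag3, a partner of Hsp70 induced by stress, was 3.83-fold lower in germ cells (136 against 520) and Sugt1 3.11-fold lower. Hsf1 read 115 to 247 in germ cells and 123 and 79.0 in tubular and interstitial cells. Between binding and non-binding cells, Grpel2 and Ttc4 were called higher (5.56%, against 4.85% of all genes). Stip1, St13, Clpx and Cdc37l1 were called lower (11.1%, against 5.29%). Cdc37l1 had the largest fold, at 116 in binding and 876 in non-binding cells, 7.58-fold lower. With a geometric mean of at least 250, 8.26% of all genes were called higher and 8.73% lower. No gene of this list was called between STO day 20 and day 1 or between MSC1 and STO.

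Over culture on STO feeders, 1 member was called between day 20 and day 1. The ratio of the highest to the lowest of the 4 days was 4.59 for Hspa1a, 3.43 for Hspa4l, 3.37 for Dnajb4 and 3.08 for Hspbap1. Such a ratio takes the extremes of 4 single libraries. The share of all genes with a ratio this large was not computed. Dnaja4, a DnaJ protein of the cytosol, read 507, 328, 252 and 149 on days 1, 5, 10 and 20, a 3.40-fold lower value on day 20 and lower at each step. Its other probe sets were at or near the floor on both days, and with the mean over probe sets it was not called. The count was 1 of 70 members lower (1.43%), against 3.76% of all genes, and none higher, against 2.09%. With a geometric mean of at least 250 it was 1 of 43 lower (2.33%, against 5.96%) and 0 higher, against 3.33%.

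Members under the threshold fell into several courses. Hspbap1 read 1677, 1839, 1399 and 598 on days 1, 5, 10 and 20, 2.80-fold lower on day 20 than on day 1. Hspa14 read 2398, 2731, 3392 and 1330, highest on day 10. Hspa1a, the stress-inducible Hsp70, read 577, 217, 131 and 602, so that the first and last day were alike and day 10 was lowest. Hsph1 read 1252, 846, 1654 and 1661, and Hspe1 3333, 7346, 3284 and 2523, with a single high value on day 5 that its neighbour Hspd1 did not share at 4937, 6056, 5657 and 5759. Hspa2 read between 716 and 1084 on these days. Of the meiotic list, Sycp1, Sycp2, Spo11, Smc1b and Stag3 were called higher on day 20, while Ldhc read 24.7 and Crisp2 1.2 on day 20, both under the floor. In non-binding cells, where Hspa2 read 5333, Ldhc read 6938 and Crisp2 3811.

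By their brightest probe sets, the endoplasmic reticulum members were higher on day 20 than on day 1 for 8 of 8 with a signal. Of all genes with a geometric mean of at least 250, 54% were lower on day 20. None of the 8 members was called, and another probe set of Dnajc10 ran the other way, at 844 on day 1 and 637 on day 20. Hspa13, an Hsp70-like protein of this compartment, read 305, 346, 497 and 867 on days 1, 5, 10 and 20, Dnajc1 337, 414, 396 and 888, and Dnajc3, which restrains a kinase of the stress response, 474, 770, 578 and 1053. Their folds of day 20 over day 1 were 2.84, 2.64 and 2.22, and the median log2 fold of the 8 was 0.75, against -0.12 for all genes with a signal. The unfolded protein response genes Canx, Herpud1 and Sdf2l1 were called higher on day 20. The fibroblast and matrix genes were called higher for 4 of 7, with sums of 3723, 1337, 2376 and 5379 over the 4 days, and their part in the chaperone values was not tested.

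A straight line on log2 culture day was fitted to all 15710 probe sets with a mean of at least 100 on the 4 STO days, with limma's moderated test and Benjamini-Hochberg adjustment. The spread here is the departure from the line, on 2 residual degrees of freedom, and not that of repeated cultures. No probe set passed an adjusted p of 0.05 in either direction (0%), and so 0 of the 52 members tested did. At an unadjusted p under 0.05, 2 members had a rising slope (Hspa13 and Dnajc15) and 1 a falling slope (Dnaja4), against 3.7% and 5.65% of all probe sets. The slope of Dnaja4 was -0.39 ± 0.12 (SE) on the log2 scale per doubling of days, with an adjusted p of 0.446 by limma, and that of Hspa13 was 0.32 ± 0.12 (SE), with an adjusted p of 0.486 by limma.

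**Figure D5:**
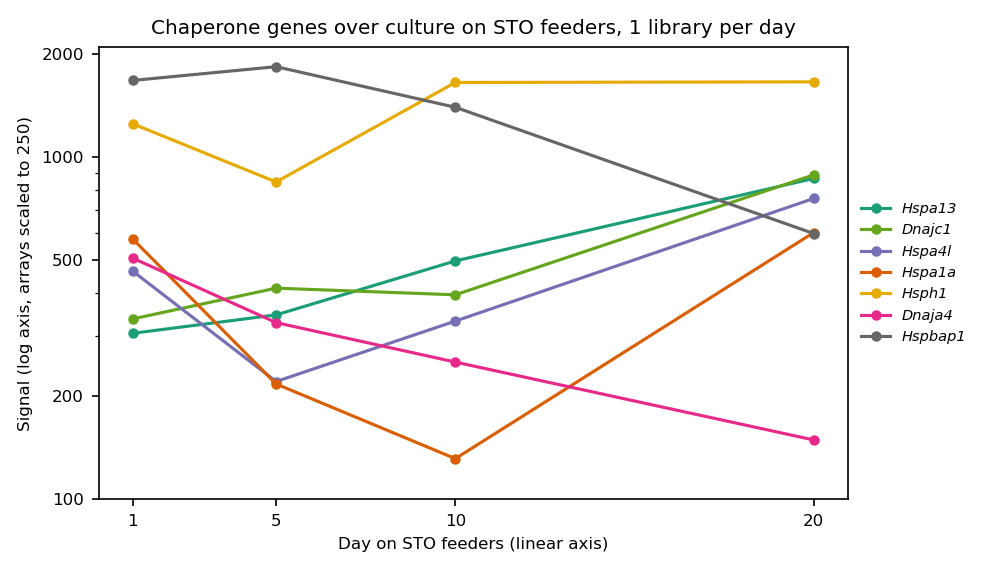
Signal on a log axis (arrays scaled to 250) of 7 members on days 1, 5, 10 and 20 on STO feeders, 1 library per day, joined by lines. Hspa13 and Dnaja4 move one way at every step, with 305 on day 1 and 867 on day 20 for Hspa13 and 507 and 149 for Dnaja4, while Hspa1a is lowest on day 10 at 131.

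After 20 days, cells on MSC1 and on STO feeders differed in 2 called members. Hspbap1 read 1932 on MSC1 and 598 on STO, 3.23-fold higher on MSC1, a call that was lost when every array was set to a common 75th percentile. Dnajb4, a DnaJ protein of muscle and other tissues, read 305 on MSC1 and 966 on STO, 3.17-fold lower on MSC1. Dnaja1 was called lower on MSC1 by another probe set only (651 against 2176, 3.34-fold), with 2084 and 4059 by its brightest. Under the threshold on the lower side, the largest folds were those of Hspa4l (258 on MSC1 and 757 on STO, 2.94-fold), Hspa13 (334 and 867, 2.59-fold), Cct8 (999.8 and 2584, 2.58-fold) and Cct4 (644 and 1619, 2.52-fold). On the higher side Dnaja4 read 382 on MSC1 and 149 on STO, and Hspb6 253 and 105.5, and neither was called. For Cct4 the MSC1 library was lowest of the 9, and for Cct8 as well, while Cct6a was highest of the 9 on MSC1 at 1909, against 1395 on STO.

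Of the endoplasmic reticulum members with a signal 7 of 8 were lower on MSC1, with a median log2 fold of -0.81, and none was called, while 5 of 7 unfolded protein response genes were called lower. Of all genes with a geometric mean of at least 250, 50.5% were lower on MSC1. Between the same libraries, 4 of 7 genes of undifferentiated spermatogonia were called higher on MSC1, and 3 of 7 meiotic and 2 of 6 Leydig cell genes lower, with meiotic sums of 3512 on MSC1 and 14373 on STO. Their part in the chaperone values was not tested. In the heat-inducible list 4 members were lower on MSC1 and 3 higher, and none was called by its brightest probe set. Dnajb1 read 1432 on MSC1 and 3085 on STO, Hsph1 748 and 1661, and Hspa1a 314 and 602, lower on MSC1 by folds of 2.15, 2.22 and 1.92. Dnaja1, given above, was lower too. Hspe1 was 1.82-fold higher on MSC1 at 4605, against 2523 on STO. Hspb1, at 279 on MSC1 and 142 on STO, and Hspd1, at 6172 and 5759, were also higher on MSC1. The shares called were 1.43% of members higher, against 3.63% of all genes, and 1.43% lower, against 2.72%. With a geometric mean of at least 250 they were 2.33% higher, against 4.86%, and 2.33% lower, against 5.27%. The median log2 fold of 61 members with a signal was -0.13, against 0.23 for all genes.

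Of 7 small heat shock protein genes, 3 were called lower in the tubular than in the interstitial fraction, against 3.99% of all genes. Hspb2 and Hspb3 were under the floor in both fractions, and Hspb8 in the tubular fraction. Hspb7 (678 in tubular and 498 in interstitial cells) and Hspb9 (229 and 165) were higher in the tubular fraction and not called. Hspb1, a stress protein that binds actin filaments, read 184 in tubular and 1067 in interstitial cells, 5.81-fold lower, and between 25.2 and 279 in the germ cell libraries. Hspb8, a partner of Bag3, read 44.1 in tubular and 312 in interstitial cells, at least 6.25-fold lower, and 70.8 or less in the germ cell libraries, where it was above the floor in non-binding cells only. Its other probe set read 56.6 in tubular cells and was at the floor in interstitial cells, and with the mean over probe sets Hspb8 was not called. Hspb6, known from smooth muscle, read 94.0 in tubular and 333 in interstitial cells, 3.55-fold lower. Cryab, a small heat shock protein on the cochaperone list, ran the other way at 1012 in tubular and 164 in interstitial cells, 6.18-fold higher in tubular cells. Beside these values, 4 of 6 Leydig cell, 4 of 7 macrophage and 3 of 7 fibroblast and matrix genes were called lower in the tubular fraction, with Leydig sums of 944 in tubular and 8458 in interstitial cells. Their part in the chaperone differences was not tested.

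Hspa2 was 3.46-fold lower in the tubular fraction (107 against 371) by the probe set on type B, while that on type A was at the floor in both, and the meiotic genes Ldhc and Crisp2 were called lower there too. The summed signal of the meiotic list was 307 in tubular and 998 in interstitial cells, and its part in the Hspa2 difference was not tested. The 3 members called higher in the tubular fraction were DnaJ genes. Members of other families were higher there without a call, such as Cct7 at 2559 in tubular and 1276 in interstitial cells (2.01-fold). Dnajb4 read 2635 in tubular and 811 in interstitial cells (3.25-fold), Dnajb2, which passes clients to the proteasome, 1357 and 430 (3.16-fold), and Dnajc11 of the mitochondrial membrane 1666 and 540 (3.09-fold). Dnajb4 lost its call after quantile normalization, and Dnajc11 when every array was set to a common 75th percentile. Cct5 was called lower in the tubular fraction by another probe set (276 against 905, 3.28-fold), with 1830 and 1815 by its brightest. For Dnajb4 and Dnajb2 the tubular fraction was the highest of the 9 libraries. A second probe set of Dnajc11 gave a larger fold, at 1186 in tubular and 274 in interstitial cells (4.33-fold), its 2 dim ones gave no call, and the other probe set of Dnajb2 read 98.9 in tubular cells and was at the floor in interstitial cells. The shares called were 3 of 70 members higher (4.29%, against 3.3% of all genes) and 4 lower (5.71%, against 3.99%), near the background on both sides. With a geometric mean of at least 250 the shares were 6.98% higher, against 4.11%, and 2.33% lower, against 3.71%.

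Across the 9 libraries the members varied about as widely as other genes. For the 43 members with a geometric mean of at least 250, the ratio of the highest to the lowest library had a median of 3.66, against 4.15 for 5520 genes chosen the same way. Hspd1 had the narrowest range of them, 1.43-fold between 4642 in interstitial and 6627 in binding cells, followed by Dnajc30 at 1.77-fold and Dnajc8, a splicing factor, at 1.87-fold. Hspe1, which shares the upstream stretch shown for Hspd1, ranged 3.10-fold, between 2523 on STO day 20 and 7820 in binding cells. The widest ranges among these 43 were those of Hspa2 at 49.8-fold, Hspa4l at 23.6-fold, Cct4 at 9.47-fold and Dnajb4 at 9.19-fold.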

How the data were processed

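Transcript levels were measured on 18 arrays, 9 populations on each of 2 types. Per the labels, 50 ng of total RNA was amplified in 2 rounds. The deposited files hold linear intensities, with 1 value for each probe set, which, per the labels, the authors had scaled to average 250. The software was not given in the sources used here, nor was the background treatment. Scale factors lay between 0.391 and 1.512 for type A, between 1.047 and 4.009 for type B, and 59.4% to 74.3% of probe sets reached the floor of 50.

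Control probe sets were left out (57 on each type), and 100 probe sets shared by the types were counted once, leaving 31042. Only probe sets annotated to 1 gene were named. Brightness decides between types although type B is scaled up more, and an alternative reads type A first. Signals were floored and taken to log2. Calls between 2 libraries have no test. The STO trend used limma 3.58.1 in R 4.3.3 and was tested on simulated data. Every called member is named, with members of fixed role lists. The members and lists were chosen with earlier results of these data known. Alternatives varied the floor, minimum signal, scaling and probe set rule.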

Additional observations from a re-analysis of the deposited data

How the results depend on the processing

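The 28 calls of single members were recomputed under 7 alternatives, which gave 196 values, of which 177 kept their call, 19 fell under the threshold and 0 changed sign. With a minimum of 100 on the brighter side, 2 of 70 members were called lower on STO day 20 than day 1, against 4.93% of all genes. On MSC1 over STO 2 were called higher, against 5.24%, and in germ cells over the somatic fractions 2 lower, against 8.87%. With every array set to a common 75th percentile, 0 were called higher in binding than in non-binding cells, against 4.07% of all genes. On MSC1 over STO, 0 were then called higher, against 2.77%, and 3 lower, against 3.67%. After quantile normalization, 0 were called higher in binding cells, against 4.03%. Lower calls came to 2 on STO day 20, against 3.35%, and 2 on MSC1, against 2.88%. With the mean over probe sets, 0 were called lower on STO day 20, against 2.64%. In tubular over interstitial cells 1 was called higher, against 2.56%, and 2 lower, against 2.93%. The median log2 folds of members moved by less than the array spread in all comparisons and alternatives. The share of higher calls among all genes on MSC1 over STO was 57.1%, and 43% with the 75th percentile. The median log2 fold of all genes was 0.22 in binding over non-binding cells and 0.23 on MSC1 over STO, against 0.10 and 0.09 with the 75th percentile. Each of the 9 libraries was also left out in turn, a step chosen after seeing the data. This gave 6 to 10 members higher in germ cells than in the somatic fractions, against 8.22% to 10.9% of all genes. It gave 1 to 3 members lower, against 7.47% to 11.3% of all genes. The 3 lower members came without non-binding cells, without the interstitial or without the tubular fraction, and 2 came without MSC1. In the STO trend, leaving out 1 day gave 0 to 2 rising and 0 to 2 falling members, with 1 residual degree of freedom. The 2 and 2 came without day 1 (Dnajb4, Hspa4l; Hspbap1, Hspe1), when 5.36% and 5.88% of all probe sets were called, and 1 falling member came without day 20. With days on a linear scale there were 1 rising and 2 falling members, against 3.6% and 5.39% of all probe sets. The cause of these differences was not tested. No paired analysis was possible because each population had 1 library. Signals near the floor limit folds of dim members.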

Other observations

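Some of the best known chaperones of these families were on the arrays only through probe sets annotated to several genes, and are given here as values of those probe sets. The probe set annotated to Hspa1b and Hspa1a read 895 in binding and 309 in non-binding cells, 391 on MSC1, 652, 313, 205 and 1694 on days 1, 5, 10 and 20 on STO, 149 in tubular and 570 in interstitial cells. It shared with the probe set of Hspa1a alone a low on STO day 10 and its highest signal on STO day 20. The probe set annotated to Hspa8 and Haus8l2 read 10085 in binding and 5707 in non-binding cells, 6537 in tubular and 3243 in interstitial cells. On MSC1 it read 7804, and on days 1, 5, 10 and 20 on STO 5524, 9460, 6244 and 6559. The probe sets annotated to Hsp90aa1 and a pseudogene disagreed between binding and non-binding cells, at 3126 and 6016 for the first and 2163 and 2120 for the second. Both were lowest in the interstitial fraction, at 2103 and 356. A probe set annotated to Hsp90ab1 and 5 of its pseudogenes read 85.2 in binding cells and under the floor in non-binding cells, and 927, 379, 772 and 384 over the STO days. No explanation was tested for these values.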
